A study of Daphnia magna with 3 samples.

Results

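The carcass-dominated transcripts of Daphnia magna, a freshwater water flea, are 100 of the 33957 model transcripts in the deposited table. Of these, 4596 had at least 100 reads over the 21 libraries, and 103 of the 4596 had at least 40% of their summed level in carcass and no higher body part. The 100 with the largest carcass share were kept. Share means the median level over the 3 replicates in carcass, divided by the sum of such medians over the 7 body parts. Levels are in CPM, the reads of a transcript scaled to the total of its library. The members were chosen by these read totals and carcass levels, so every statement on their carcass share is a description with no test.

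The libraries come from animals of the genotype IL-M1-8, kept at 20 °C in ADaM medium and fed algae. No group received a treatment, and no age is given. Total RNA was taken from 7 dissected samples: hemocytes, eggs, gut, antenna, head, carapace and carcass (given in the labels as carcass or body). It was read as cDNA by nanopore sequencing after ligation library preparation. Each of the replicates 3, 4 and 7 is 1 pool, with a barcode for each of the 7 body parts. The labels do not say whether animals were pooled, which tissues the carcass retained, or whether the replicates are separate cultures. All p-values below therefore describe the spread among these libraries alone, and that spread may be technical.

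As background, the trunk of a water flea lies inside the carapace and carries the limbs that filter algae and move water over the respiratory surfaces. It also holds muscle, fat tissue and the heart, and in females the ovaries lie along the gut. Hemolymph circulates freely through the body cavity, and carapace and antennae are cuticle-bearing parts. The deposited table pairs its identifiers with no gene name, and 0 of them were found in the gene table that RefSeq gives for assembly ASM2063170v1.1. No role, sequence or chromosome position is therefore given, and the carcass label could not be set against marker genes. Identifiers name gene models on contigs, and each is printed as deposited.

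Carcass libraries of replicates 3, 4 and 7 held 262185, 177033 and 416875 reads. Gut libraries were shallow, with 32202, 4161 and 26378 reads, so that 1 read of the gut of replicate 4 was worth 240 CPM. The gut of replicate 4 held a read of 14 of the 100 members, and the gut of replicate 3 of 84. A median over 3 gut libraries was thus 0 for 71 members, against 38.6% of the transcripts with at least 100 reads. Medians of 0 were found for 7 members in hemocytes, 10 in carapace, 15 in head and 20 in antenna.

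The 100 members took 7.29% of the carcass reads of replicate 3, 22.5% of replicate 4 and 6.42% of replicate 7. Eggs held the smallest shares, at 0.150%, 0.195% and 0.226% of their reads. Hemocytes held 0.978%, 4.02% and 1.97%, antennae 0.720%, 1.41% and 1.37%, heads 0.566%, 1.64% and 1.36%, and carapaces 0.514%, 1.03% and 0.285%. Every carcass library therefore lay above every other library in this sum, and the nearest was the gut of replicate 3 at 5.07%. The other gut libraries held 2.84% and 0.239%, so the gut spanned nearly the whole range seen outside the carcass. In bulk RNA, fewer cells of a type and less RNA per cell cannot be told apart.

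**Figure D1:**
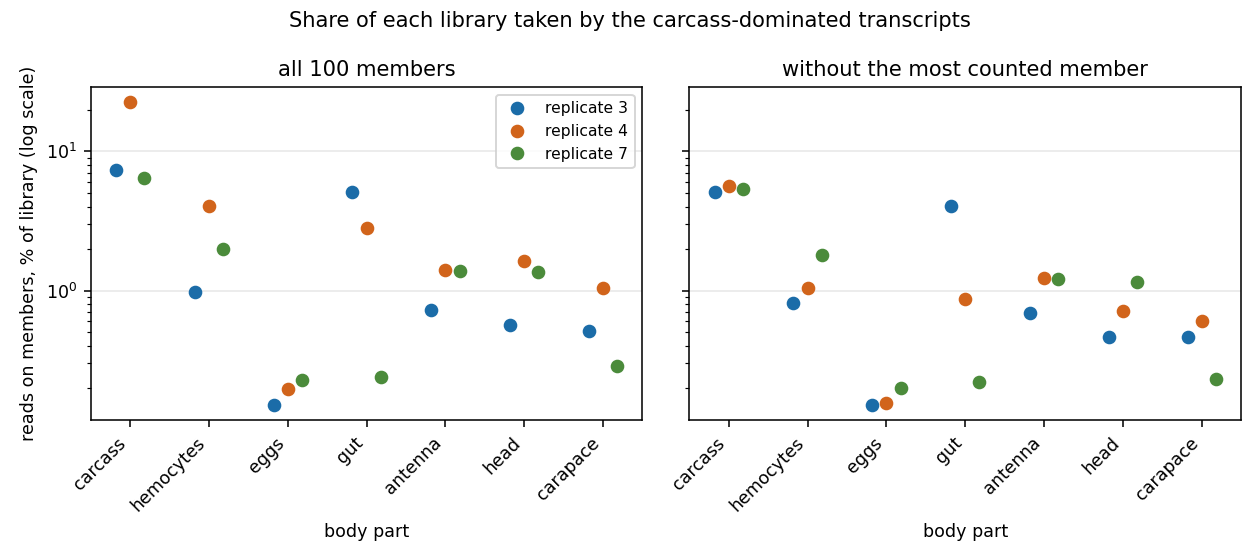
Share of each library's reads (%, log scale) on the 100 members, by body part and replicate, with all members on the left and without the most counted member on the right; each point is 1 library. With all members the carcass libraries range from 6.42% to 22.5%, and without the most counted member from 5.12% to 5.65%.

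A single transcript carried much of this sum. The member maker-falcon_000004F-augustus-gene-31.49-mRNA-1, 6383 bases long, had 49917 of the 126469 member reads. Its carcass levels were 21676 CPM in replicate 3, 168488 in replicate 4 and 10308 in replicate 7, a mean of 66824 ± 88227 (SD, n = 3). It was also high in replicate 4 outside the carcass: 29702 CPM in hemocytes, 19707 in gut and 9250 in head. In eggs it stood at 5.69, 390 and 261 CPM. The carcass library was the highest within each replicate, yet the hemocytes of replicate 4 exceeded the carcass of replicates 3 and 7, so the groups overlapped. Without this transcript, the other 99 members took 5.12%, 5.65% and 5.39% of the carcass reads, which are close to each other, against 4.06% in the gut of replicate 3 and at most 1.81% in any library outside carcass and gut.

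The next most counted member, genemark-falcon_000016F-processed-gene-1.92-mRNA-1 (4653 bases, 6322 reads), varied less. It had 4268, 5219 and 6611 CPM in the carcass of replicates 3, 4 and 7, a mean of 5366 ± 1178 (SD, n = 3). Its highest level elsewhere was 2546 CPM in the gut of replicate 3, followed by 1482 in the head of replicate 7, so no other library reached a carcass library. In eggs it had 0, 2 and 29 reads.

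Carcass shares ran from 100% down to 40.4%. Of the members, 4 had at least 90%, 26 at least 70% and 62 at least 50%, and the median was 55.1%, where all transcripts with at least 100 reads had a median share of 14.6%. The last 2 members inside the list had shares of 40.45% and 40.37%, and the first 2 outside had 40.34% and 40.28%, so the edge of the list separates nearly equal values. By the same reads and share, 988 transcripts were dominated by eggs, 210 by antenna, 160 by carapace, 68 by head, 56 by gut and 35 by hemocytes.

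A share of 100% did not mean that other libraries were empty. The first member by share, maker-falcon_000016F-augustus-gene-23.141-mRNA-2, had 42, 20 and 64 reads in the carcass of replicates 3, 4 and 7. It also had 37 reads in the hemocytes of replicate 7 and 27 in the gut of replicate 3, where its 838 CPM exceeded the 160 CPM of the carcass of that replicate. Its remaining reads were 1 in an antenna and 1 in a carapace library. Every other body part had a median of 0, so the reads in these libraries did not enter the share.

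The second member by share was close to confined to carcass reads. maker-falcon_000003F-augustus-gene-21.58-mRNA-1 (1808 bases) had 8, 42 and 246 carcass reads, or 30.5, 237 and 590 CPM. Elsewhere it had 10 reads in all: 3 in hemocytes, 3 in antenna and 4 in head, with 0 in eggs, gut and carapace. Its highest level outside the carcass was 19.6 CPM, below the lowest carcass library, although its 3 carcass libraries differed 19.3-fold.

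**Figure D2:**
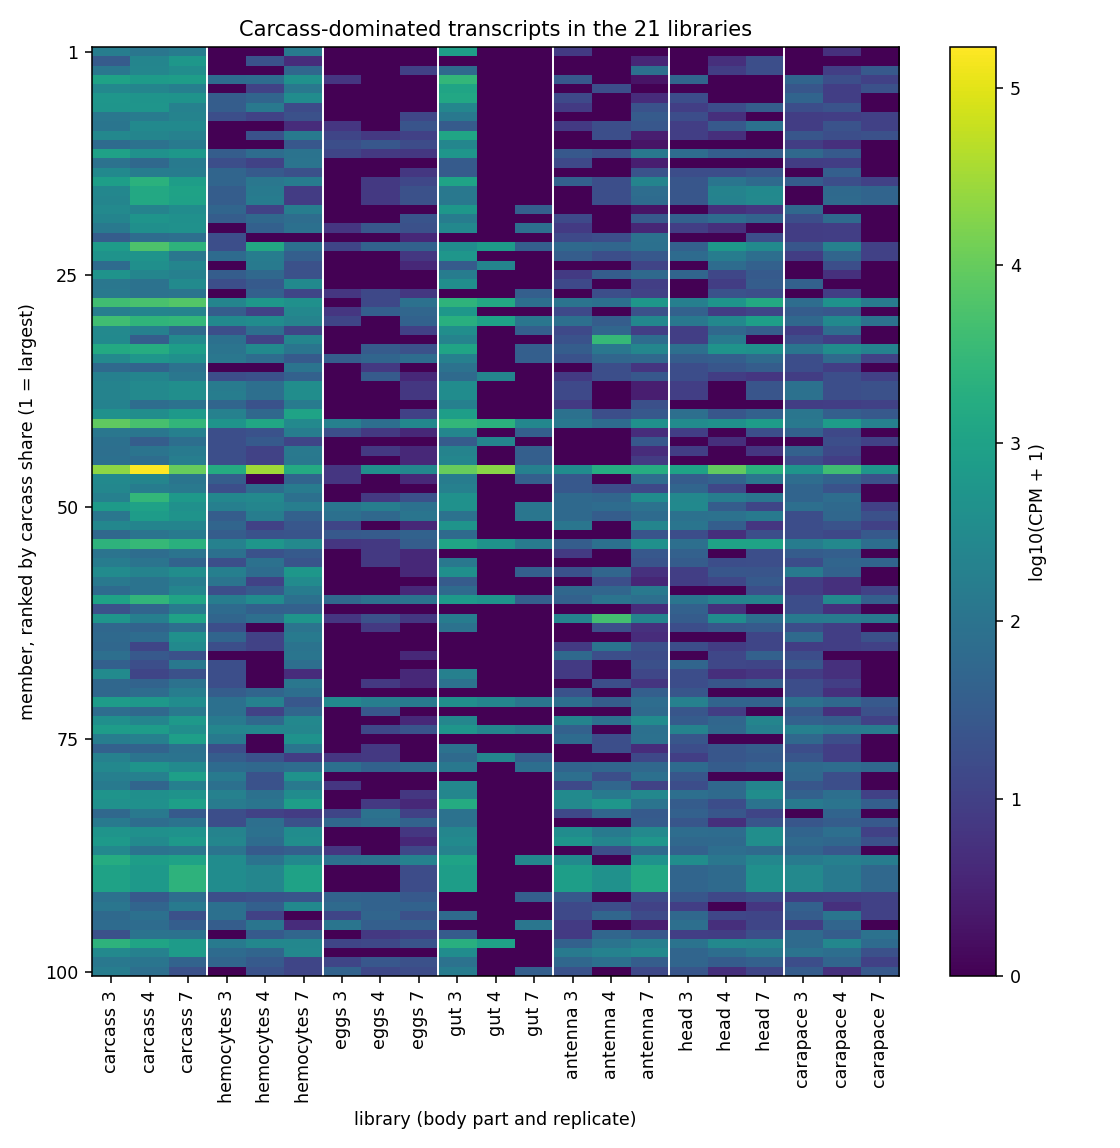
Levels of the 100 members (rows, ranked by carcass share) in the 21 libraries (columns, 3 replicates per body part), as log10(CPM + 1). The 3 carcass columns are filled for every member, egg columns are mostly dark, and the gut column of replicate 3 is bright where those of replicates 4 and 7, with 14 and 28 members detected, are dark.

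Within single replicates, the dominance of the carcass was less regular than the share from medians. The carcass was the highest body part for 87 members in replicate 4, 79 in replicate 7 and 61 in replicate 3. Median carcass shares within these replicates were 57.8%, 48.8% and 37.3%. For 44 members the carcass was the highest in 3 of 3 replicates, for 41 in 2, for 13 in 1 and for 2 in none. The last 2 are carcass-dominated by the rule only: in maker-falcon_000001F-snap-gene-32.73-mRNA-1 the gut led in replicate 3 (279 CPM against 141 in carcass) and the head in replicates 4 and 7 (56.2 against 50.8, and 231 against 180).

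The departures in replicate 3 came mainly from the gut. Its gut library was above the carcass library for 34 members in replicate 3, against 3 in replicate 4 and 2 in replicate 7. In replicate 7 hemocytes were above the carcass for 12 members. The highest library outside the carcass was the gut of replicate 3 for 49 members and the hemocytes of replicate 7 for 18. Whether these libraries carried material from neighbouring tissue was not tested.

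Every carcass library lay above every other library for 15 of the 100 members, where 0.522% of all transcripts with at least 100 reads (24 of 4596) had that pattern. The rule used the same contrast, so nothing is read from the difference. Without the gut of replicate 3 the count was 33, with 46 of the 4596 transcripts showing the pattern, and without all gut libraries it was 37, with 61 of them (1.33%). Among carcass libraries, the highest exceeded the lowest by a median of 2.43-fold over the members (1.12-fold to 28.0-fold). The same median was 2.34-fold over the 4382 transcripts that had at least 100 reads and a read in each carcass library. The highest carcass library was that of replicate 7 for 42 members, of replicate 3 for 35 and of replicate 4 for 23.

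**Figure D3:**
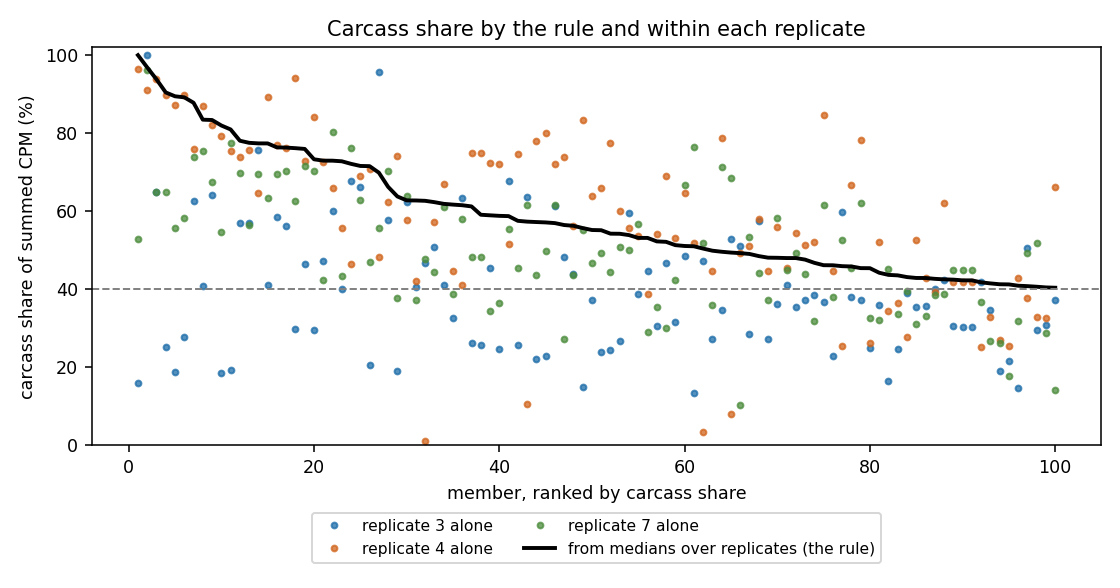
Carcass share (%) of each member by the rule (black line, medians over 3 replicates) and within each replicate (points), against its rank; the dashed line marks 40%. Points of replicate 3 fall furthest below the line, with a median of 37.3% against 57.8% in replicate 4.

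An edgeR fit to all 21 libraries gives the size of the contrast on which the members were chosen. Of the 93 members that passed its filter on low counts, 71 were higher in carcass than in the mean of the other 6 body parts, where 2.48% of the 4035 transcripts tested were called higher and 0.0248% lower (adjusted p under 0.05); 0 members were lower. The median log2 fold change was 2.89 for the members and 0.17 for all transcripts tested. This restates the choice and supports nothing further. Without all libraries of replicate 4 the count was 31, and the share of all transcripts called in that fit was not computed.

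The body part that came second to the carcass divided the members into unlike sets. By median CPM it was hemocytes for 33 members, antenna for 20, gut for 19, head for 15, and carapace and eggs for 6 each, while 1 member had no other median above 0. The carcass median was at least 2 times the second for 64 members, and the median ratio was 2.47. Members with gut second were long, with a median length of 5442 bases, and those with hemocytes second were short, at 1338 bases, 12 of the 33 being under 1000. Those with antenna second had the lowest median carcass share, 43.9%, and those with head second the highest, 62.3%. The gut median was 0 for 71 members, so gut could not come second for those. The gut of replicate 3 was nevertheless the highest library outside the carcass for 49 members. These sets rest on medians that include shallow gut libraries, were formed after the values were seen and carry no test.

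To describe how the members differ among the other body parts, the 18 libraries other than carcass were fitted alone, with a filter that used no carcass reads. These libraries form the denominator of the carcass share, so they took part in choosing the members. The rule sets how low these body parts are together and does not name an order among them, but the tests are not independent of it. It also leaves out transcripts dominated by any of these body parts, which the shares over all transcripts tested include. Only 44 members passed the filter, which asks for a minimum level in at least as many libraries as a body part has replicates. A member could pass through a single body part in which it was high, so counts over the 44 are given beside those of all transcripts tested and are no evidence about the other 56. Of the 44, 37 differed among the 6 body parts, where 41.4% of the 3489 transcripts tested did (edgeR quasi-likelihood joint test, adjusted p under 0.05).

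Eggs were the body part with the least of these transcripts. Of the 44 members tested, 34 were lower in eggs than in the mean of the other 5 body parts and 0 were higher, where 22.3% of all transcripts tested were lower and 28.7% higher. The median log2 fold change in eggs was -4.63 over these members (quartiles -5.49 and -3.41) and 0.31 over all transcripts tested. The rule left out transcripts dominated by eggs, 988 by the same reads and share. The lack of members higher in eggs and the distance to all transcripts therefore follow in part from the choice of members. With RLE in place of TMM factors the median of all transcripts in eggs shifted by 0.34 and 33 members were lower. The share of all transcripts called lower in that fit was not computed. With no filter, all 100 members entered, and 57 were lower in eggs, 33 of them among the 34, where 4.88% of 18818 transcripts were.

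The egg count changed with the gut libraries in the fit. The guts of replicates 4 and 7 held a read of only 14 and 28 of the 100 members. Without the gut of replicate 3, 13 of 56 members tested were called lower in eggs. The share of all transcripts called in that fit was not computed, and the cause of this lower count was not tested. With all gut libraries left out, 41 of 46 members tested were lower in eggs than in the mean of the other 4, where 28.4% of 3586 transcripts were. Leaving out 1 of 4 other libraries (replicate 7 of gut or carapace, replicate 4 of antenna, replicate 3 of head) gave 52 to 54 of 73 to 75 members tested.

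Reads in eggs also entered the choice of members, so their counts are a description and no second support. Of the 100 members, 22 had 0 reads among the 661067 egg reads, against 3.13% of the 4596 transcripts with at least 100 reads, and 51 had a median of 0 in eggs, against 7.38%. In the much shallower gut 13 members had 0 reads (7.75% of those transcripts), in head 6 (0.370%), in carapace 1 (0.413%), and in hemocytes and antenna 0 (0.326% and 0.196%). By the median the order differed, with 71 members at 0 in gut against the 51 in eggs.

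Both members named for eggs had 0 egg reads. The first, augustus_masked-falcon_000015F-processed-gene-13.11-mRNA-1 (3988 bases), had 290, 198 and 744 CPM in carcass and 141, 205 and 272 in antenna, and it was found in every hemocyte, head and carapace library. Against 119 ± 107 CPM over the other 15 libraries (SD, n = 15), eggs were at least 26.3-fold lower, taking 3 reads over the 3 egg libraries as the floor (edgeR, adjusted p = 0.000433, lower in 3 of 3 replicates). The second, maker-falcon_000016F-augustus-gene-9.108-mRNA-1 (722 bases), was at least 58.1-fold lower (edgeR, adjusted p = 0.0126), but its level of 264 ± 801 CPM over the same libraries (SD, n = 15) rests on 3143 CPM in the antenna of replicate 4. Both calls were lost without the gut of replicate 3 (adjusted p = 0.999999), and the second also without the eggs of replicate 7 (adjusted p = 0.0532). Floors cover counting error only.

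A few members, on the other hand, were used in eggs as well. The eggs were the second body part for 6 members, with a median of 145.5 reads over all libraries. In maker-falcon_000000F-augustus-gene-71.24-mRNA-1, picked after its values were seen as the other member never highest in carcass, eggs had 108, 37.7 and 36.8 CPM and carcass 64.8, 67.8 and 36.0, so the 2 body parts overlapped. Among the 44 tested, 3 had a positive log2 fold change in eggs, and none of the 3 was called.

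**Figure D4:**
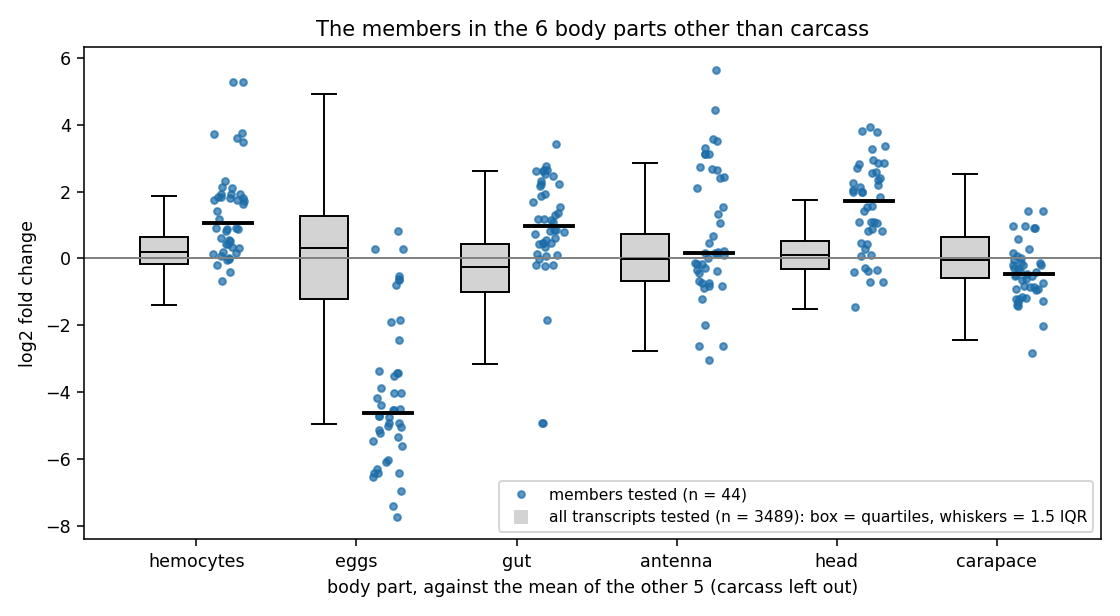
Log2 fold change of each of 6 body parts against the mean of the other 5, in a fit without carcass libraries; points are the 44 members tested with a bar at their median, and boxes are all 3489 transcripts tested. Members lie lowest in eggs, with a median of -4.63, and highest in head, with a median of 1.70. Eggs are among the other 5 for each remaining body part, so low egg levels raise those values.

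Hemocytes, the circulating cells of the hemolymph, held more of some members. Of the 44, 6 were higher in hemocytes and 0 lower, where 1.35% of all transcripts tested were higher and 0% lower, and 39 had a log2 fold change above 0. The median was 1.05 against 0.19 for all transcripts tested. Without the hemocytes of replicate 7 there was no call, without those of replicate 4 there were 27 of 73 members tested, and DESeq2 called 1. The count was 10 to 22, with 56 to 75 members tested, when the library left out was any of antenna or head, replicate 3 of hemocytes or eggs, or replicate 3 or 7 of gut or carapace. For these fits and DESeq2, the share of all transcripts called was not computed.

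The largest hemocyte difference was that of a snap_masked model on contig 000004F, 720 bases long, with 717 reads. A neighbouring model of 740 bases and 707 reads had counts that coincided with these, library by library, for 98.1% of reads. Whether both models held the same reads was not tested, so the values of the 720-base model are uncertain. It had 133, 19.6 and 469 CPM in the hemocytes of replicates 3, 4 and 7 and 175, 192 and 907 in carcass. Antennae had 80.7, 17.1 and 86.0 CPM, while eggs and gut had 0 reads. Its log2 fold change was 5.28 ± 0.85 in hemocytes (SE, adjusted p = 0.00597) and 3.56 ± 0.97 in antenna (SE, adjusted p = 0.0184), both higher in 3 of 3 replicates. Because eggs and gut were at 0, these fitted values depend on the prior count and are not bounds. By mean CPM, antennae had 61.3 against 48.0 over the other 15 libraries, and hemocytes lay above antennae in each replicate. The hemocyte call was lost without the hemocytes of replicate 7 (adjusted p = 0.677), and the antenna call by DESeq2 and without the antenna of replicate 3 or 7.

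The next among members higher in hemocytes in 3 of 3 replicates was maker-falcon_000079F-augustus-gene-2.110-mRNA-1 (898 bases). It had 167, 78.3 and 358 CPM in hemocytes against 214, 282 and 381 in carcass. Outside these it was low in most libraries, except 342 CPM in the gut of replicate 3 and 88.5 in the carapace of replicate 3. The log2 fold change in hemocytes was 3.75 ± 0.65 (SE, adjusted p = 0.00597), with the call lost by DESeq2 and without the hemocytes of replicate 7. A second model of that contig had counts that coincided with these for 99.8% of reads, and these values too are uncertain.

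Heads held more of 12 of the 44 members and less of 0, where 2.18% of transcripts tested were higher and 0% lower. The median log2 fold change was 1.70 against 0.09, and here too low egg levels raised the values of the members. The count was 7 with RLE factors, 6 with the replicate number as a block, 5 by DESeq2, 1 without the head of replicate 4 and 5 without that of replicate 7. It was 22 when the replicate 3 gut library was left out, and 23 when the replicate 3 head library was. For none of these alternatives was the share of all transcripts called computed. The largest was snap_masked-falcon_000001F-processed-gene-38.92-mRNA-1 (5438 bases), with 24.3, 213 and 306 CPM in head and 256, 1435 and 1022 in carcass. Its log2 fold change in head was 3.92 ± 0.75 (SE, adjusted p = 0.00253), higher in 3 of 3 replicates, and the call was lost without the head of replicate 4 (adjusted p = 0.0523). Carcass levels were above every head level except in replicate 3, where 256 CPM lay below the 306 of the head of replicate 7. The next, maker-falcon_000001F-augustus-gene-38.69-mRNA-1, is a neighbouring model with nearly the same counts, described with its cluster.

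Antennae held more of 13 members and less of 0, where 10.9% of transcripts tested were higher and 3.98% lower, and the median log2 fold change of 0.16 lay near the -0.01 of all transcripts. Without the antenna of replicate 7 the count was 3, and without all libraries of replicate 4 it was 4. The share of all transcripts called in those fits was not computed. The largest called log2 fold change, 5.64 ± 1.05 (SE, edgeR, adjusted p = 0.000982) in maker-falcon_000016F-augustus-gene-9.108-mRNA-1, was higher in only 2 of 3 replicates. Among members higher in 3 of 3, the largest difference was in maker-falcon_000036F-augustus-gene-7.104-mRNA-1 (747 bases). That member had 215, 4578 and 224 CPM in antenna and 534, 181 and 1039 in carcass. Its log2 fold change of 4.42 ± 0.80 (SE, adjusted p = 0.000586) fell to 1.65 without the antenna of replicate 4, and the call was lost (adjusted p = 0.255).

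Gut and carapace gave no calls among the 44 in either direction. In gut, 37 of the 44 had a log2 fold change above 0, with a median of 0.97 against -0.26 for all transcripts, and 15 were higher at an unadjusted p under 0.05. Eggs were among the body parts averaged, so low egg levels raised these gut values as well. DESeq2 called 1 higher in gut and 0 lower, and the share of all transcripts it called was not computed. In carapace the median was -0.48 against -0.06, 1 member was lower and 0 were higher at an unadjusted p under 0.05, and DESeq2 called 0. All transcripts tested gave 10.1% called higher in carapace and 0.258% lower. They include transcripts dominated by carapace, which the rule leaves out, so nothing is read from the difference. Of all transcripts tested, 0% were called in gut in either direction. Leaving out 1 library other than the gut of replicate 3 gave up to 7 members higher in gut, with more members tested.

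Other fits tested more of the members. With no filter, 79 of 100 members differed among the 6 body parts (14.8% of all transcripts tested), 47 were higher in hemocytes (1.35%), 13 in gut (0.26%), 24 in antenna (5.57%), 24 in head (2.17%) and 2 in carapace (2.9%), and 1 was lower in antenna (1.07%). With the carcass libraries in the fit, 93 members were tested, of which 75 differed (38.9%), 22 were higher in hemocytes (2.28%), 6 in gut (0.173%) and 1 in carapace (11.4%), and 63 were lower in eggs (23.8%). Since carcass reads let members into that fit, nothing is read from its counts.

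Members lay on 35 of the 158 contigs that held a transcript with at least 100 reads, with 15 contigs holding 1 member and 8 holding 5 or more, which together held 55. Contigs 000001F and 000026F held 9 each. Among contigs with at least 4 members, the largest shares of the transcripts with at least 100 reads were on contig 000061F, with 4 of 10, and contig 000079F, with 5 of 16. These are not independent counts, since the counts of the 4 nearly coincided, as did those of some of the 5. Contig 000000F, with 6 members of 360 such transcripts, had a small share. Model names carry a contig and a first number, and 41 members shared both with another member, in 15 such sets, of which 6 had 3 or more members.

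Some neighbouring members may hold the same reads, counted on overlapping or repeated models. In 8 groups with 19 members, each model had counts that coincided with those of another model in the group, library by library, for at least 80% of reads. Counting each group once leaves 89 distinct profiles of the 100. The clearest group was on contig 000026F, where snap_masked-falcon_000026F-processed-gene-16.17-mRNA-1, snap_masked-falcon_000026F-processed-gene-16.11-mRNA-1 and a further model had 3601 to 3604 reads at lengths of 2384 to 2392 bases. Their values are reported as uncertain, since the counting could place a read on any of near-identical models. With 1 model per group, 31 of 38 members tested differed among the 6 body parts and 29 were lower in eggs, against the 41.4% and 22.3% of all transcripts in that same fit.

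Other sets had counts of their own and still shared a profile. On contig 000016F, 3 members with the first number 1 were similar in length, from 4389 to 4731 bases, with 3634 to 6322 reads each. All had the gut as the second body part, with carcass shares of 58.7% to 66.2%, and for 2 of them no other library reached a carcass library. The most counted of the 3 is the transcript with a mean of 5366 CPM in carcass given above. The one that overlapped, genemark-falcon_000016F-processed-gene-1.87-mRNA-1, had 8772, 5140 and 2751 CPM in the carcass of replicates 3, 4 and 7, and 2888, 2163 and 265 in gut, so the gut of replicate 3 lay above the carcass of replicate 7. Of the 5 other transcripts with at least 100 reads that share the contig and number, 0 were highest in carcass, so the pattern did not extend to all neighbours.

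Contig 000026F carried 5 members with the first number 16, in 4 distinct count profiles, and all had antenna second. The lead model, named above with 3604 reads, had 1030, 638 and 2396 CPM in carcass and 847, 444 and 1395 in antenna of replicates 3, 4 and 7. Hemocytes had 350, 245 and 1045 CPM, and eggs 0, 0 and 15.3. The carcass was the highest within each replicate, but carcass, antenna and hemocyte libraries overlapped between replicates. Of the 5 other transcripts with that number, 2 were highest in carcass.

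On contig 000001F, 4 members with the first number 38 formed 3 distinct profiles, of 2620 to 6520 bases. The head-high model with 984 reads and its neighbour with 956 reads had counts that coincided for 96.6% of reads and are counted as 1 profile. For 1 of the 4, no other library reached a carcass library. Contig 000079F held 5 short members of 645 to 898 bases in 3 profiles, with hemocytes or gut second and shares of 57.1% to 61.2%. Contig 000016F held 3 more members with the number 9, all with hemocytes second. The 3 members of contig 000061F with the number 2 were 1 profile of 110 to 119 reads.

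**Figure D5:**
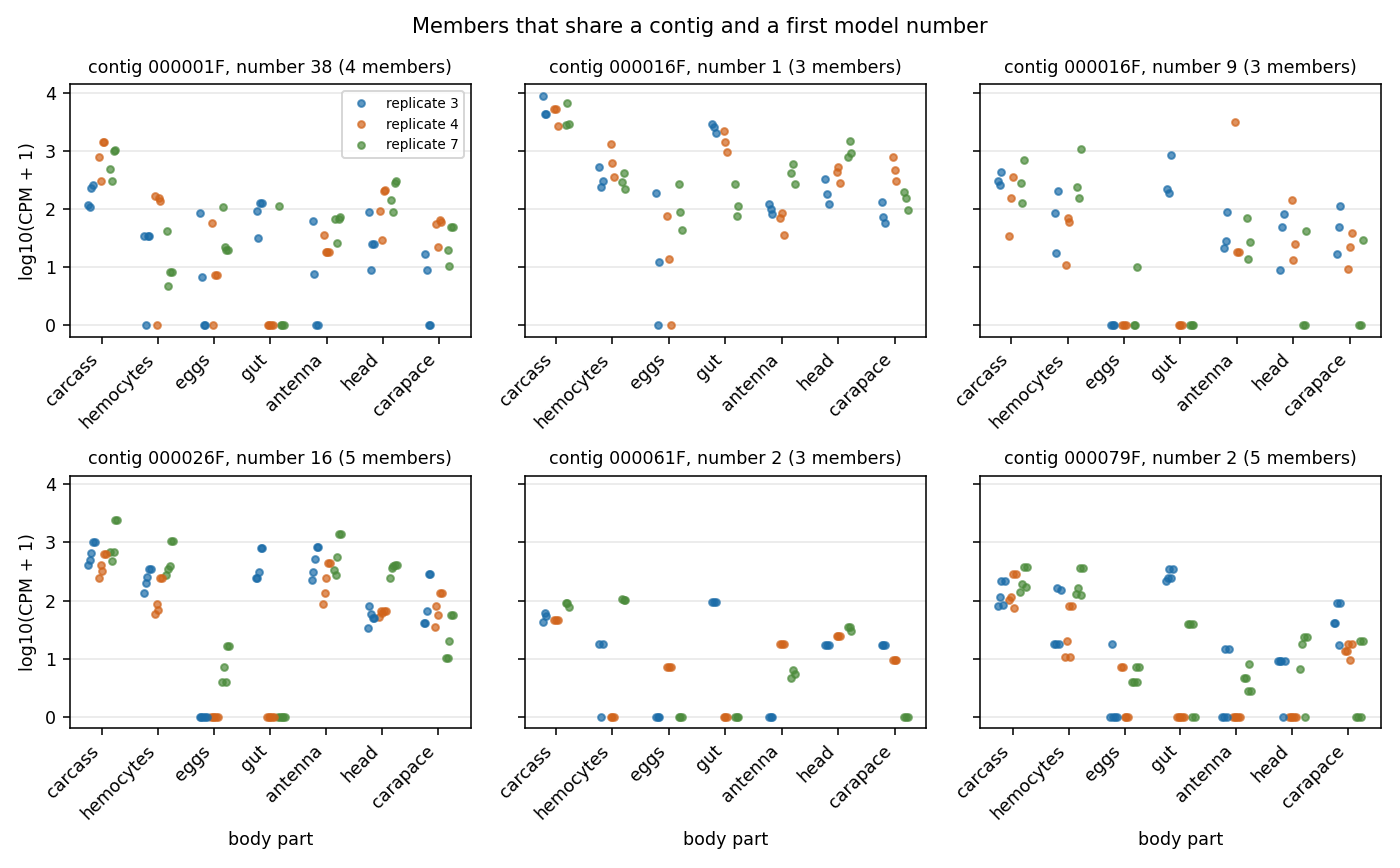
Levels, as log10(CPM + 1), of members that share a contig and a first model number, for the 6 sets of 3 or more; each point is 1 model in 1 library, coloured by replicate. Every model has reads in all carcass libraries, and the sets differ in the body part that comes second: antenna for contig 000026F, gut for number 1 of contig 000016F, head or gut for contig 000001F.

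The members included more short models and more snap_masked models than the transcripts with at least 100 reads. Their median length was 2392 bases (quartiles 1036 and 4541) against 2797 (1433 and 4765), and 24 of 100 were under 1000 bases against 15.4%. The shortest, maker-falcon_000001F-snap-gene-21.30-mRNA-1, has 435 bases and had 9, 12 and 33 carcass reads, with 2, 1 and 96 in antenna. The longest, maker-falcon_000003F-augustus-gene-21.66-mRNA-2, has 13960 bases and had 52, 18 and 40 carcass reads. Of the members 73 came from the maker gene builder, against 74.7% of those transcripts, and 10 from snap_masked models, against 4.24%, which include the near-identical models of contig 000026F. Because these models could hold the same reads, the shares by origin are not independent counts.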

How the data were processed

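The authors deposited 1 table with the length, read count and RPKM of each transcript in each library. The deposited counts are whole reads and were used unchanged. The deposited RPKM values scale to the reads of the whole replicate pool (926451, 988239 and 2424632 reads), so they entered 1 alternative. SAMtools and DESeq2 are listed in the submitters' processing notes. Which aligner, build and annotation were used is not given in the sources used here.

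Members and lists were chosen with earlier results of these data known. Tests used edgeR 4.0.16 in R 4.3.3: filterByExpr (minimum count 10), TMM factors, quasi-likelihood tests, two-sided, Benjamini-Hochberg adjustment over all transcripts tested, threshold 0.05. DESeq2 1.42.0 was an alternative. In simulated counts for 3489 transcripts in the 18 libraries, 60% of 4-fold and 100% of 16-fold changes were recovered. Depth ran from 4161 to 1105094 reads per library. Of 21 library pairs within body parts, 0 were equal within sampling noise (chi-square). Errors are SD of CPM over libraries or SE of log2 fold changes.

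The replicate number marks a shared pool, so libraries are paired by it; 19 of 45 same-numbered pairs had deviations correlated above 0.1 (median 0.0638), and a fit blocked on the number was 1 of the alternatives. Named members are the largest shares, read totals, lengths and called changes that held in 3 of 3 replicates, at most 2 a direction. The marker lists need gene names and could not be applied.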

Additional observations from a re-analysis of the deposited data

How the results depend on the processing

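The list itself depends on the processing. Of the 100 members, 62 stayed with means in place of medians, 64 with a minimum of 50 reads, 61 without the gut of replicate 4 (chosen after seeing the data), and 40 to 67 without 1 replicate. The members with every carcass library above all others numbered 37 without all gut libraries (1.33% of all transcripts with at least 100 reads). They numbered 18 to 33 (28 to 46 of 4596 transcripts) without the gut of replicate 3 or 4 or the hemocytes of replicate 7. These libraries were chosen after seeing the data, and no other single library was left out for this count. With no filter on low counts, called members were 79 in the joint test, 47 higher in hemocytes, 57 lower in eggs, 13 higher in gut, 24 higher and 1 lower in antenna, 24 higher in head and 2 higher in carapace. That fit tests all 100. With all 21 libraries in the fit, 93 members were tested, and the counts were 75, 22 higher in hemocytes, 63 lower in eggs, 6 higher in gut and 1 higher in carapace. DESeq2 called 1 higher in hemocytes, 1 in gut and 5 in head. RLE factors gave 7 higher in head and the replicate block 6; the block moved no other count by over 1.5 times. Leaving out a library or replicate gave 23 to 66 in the joint test, 0 to 27 higher in hemocytes, 12 to 54 lower in eggs, 0 to 13 higher in gut, 3 to 18 higher and 0 to 1 lower in antenna, 0 to 29 higher in head, and 31 to 86 higher in carcass. With fewer libraries the filter admits 46 to 75 members, which is part of this range, and the cause of the rest was not tested. The shares of all transcripts called were not computed for the fits without 1 library or replicate, nor for DESeq2, RLE factors or the replicate block. No log2 fold change of a named member changed sign.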
